A study of Rattus norvegicus with 4 samples.

Results

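The 33 genes described here mark microglia, the resident macrophages of the brain, and were measured in cultures of rat oligodendrocyte precursor cells (OPCs). They were chosen by name, through the RefSeq accession of each non-control probe, out of 16568 genes named on the arrays. Of these 33 genes 32 had a matched probe, and 16 entered the test between conditions. The cells came from the pooled cerebral cortices of postnatal day 2 Sprague-Dawley rats and had proliferated for 3 days with bFGF and PDGF. In differentiating medium they were transfected by Lipofectamine RNAiMAX with siRNA at 50 nM, either a pool directed at Gpr17 (siGPR17) or a non-targeting pool (siNEG). RNA was collected 48 h later, at day in differentiation 2, and 100 ng of it was labelled with cyanine 3. Each group holds 2 samples, stated in the series to be independent, on 1 array each, so that p-values measure the spread between these samples. The sample titles call the cells OPCs, and knockdown was by a siRNA pool, which lowers a transcript without deleting its gene.

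Microglia enter the brain from the embryonic yolk sac and persist through signals of Csf1 and Il34 at the receptor Csf1r. The transcription factors PU.1 (encoded by Spi1) and Irf8 set up their program, and the fractalkine receptor Cx3cr1, the complement subunits C1qa to C1qc and the Trem2 receptor with its adaptor Tyrobp are among its best known products. In the postnatal brain they clear debris and myelin, and in glial cultures they are a common companion of OPCs.

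The file headers place all 4 arrays on the same slide and in the same scan. The siNEG arrays occupied one column of the slide and the siGPR17 arrays another, so that column and treatment cannot be told apart. Each row held 1 array of each group with the same replicate number. Well above background is the flag that the scanner software sets for each spot, and a gene was counted as detected on an array where any of its probes carried it. The normalized log2 signal is the log2 intensity minus the 75th percentile of the array, and a signal printed without log2 is the same value on the linear scale, multiplied by 1 factor common to all arrays. Levels of different probes are not comparable and are not compared here. The targeted gene, Gpr17, had signals of 1107 and 1113 in siNEG and of 652.3 and 639.4 in siGPR17 OPCs. By limma this was -0.78 on the log2 scale (standard error 0.085), with an adjusted p of 0.209. The adjusted p was 0.0152 with limma's trend and robust options and 0.0220 with normexp background correction, where the change was -0.66, so that Gpr17 passed both thresholds there.

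The promoters are shown because PU.1 binds the letters GAGGAA, and because genes of this group with that word in their promoter fell on both sides of the detection limit. RefSeq promoters of the assembly GRCr8, of 300 bases around the start of each gene, were matched for 22 of the 33 genes. GAGGAA stood on either strand in 16 of the 22 (72.7%), against 27.6% of all 33469 promoters. It stood in 5 of 7 promoters of genes detected on all 4 arrays and in 9 of 11 promoters of genes detected on 0 arrays. The longer word GAGGAAGT, which contains GAGGAA, stood in 1 of 22, the promoter of the protease gene Ctss, against 2.42% of all promoters. The joint element of PU.1 and interferon regulatory factors, GGAA and GAAA with any 2 bases between them, stood in 2 of 22, those of Cd68 and Cd74, against 2.94%. These matches are letters in a window and were not tested. Shown 5′ to 3′ are Itgam (chr1:192089342-192089641, plus strand) and Laptm5 (chr5:148371630-148371929, plus strand), both detected on all 4 arrays, and Ptprc (chr13:52259697-52259996, minus strand) and Tlr4 (chr5:85160997-85161296, plus strand), both detected on 0. Capitals mark GAGGAA or its reverse complement.
Itgam: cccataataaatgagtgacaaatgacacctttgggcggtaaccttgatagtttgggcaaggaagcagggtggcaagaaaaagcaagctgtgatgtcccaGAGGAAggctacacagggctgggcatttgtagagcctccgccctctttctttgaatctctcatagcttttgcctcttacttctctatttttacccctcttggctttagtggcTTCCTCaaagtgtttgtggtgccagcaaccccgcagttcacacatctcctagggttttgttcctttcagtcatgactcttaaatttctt
Laptm5: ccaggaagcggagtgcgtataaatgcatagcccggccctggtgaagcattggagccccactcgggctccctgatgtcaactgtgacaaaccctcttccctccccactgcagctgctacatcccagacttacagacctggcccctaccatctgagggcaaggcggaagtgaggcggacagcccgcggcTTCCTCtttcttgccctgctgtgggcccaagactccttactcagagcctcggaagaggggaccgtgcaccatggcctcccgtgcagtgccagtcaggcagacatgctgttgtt
Ptprc: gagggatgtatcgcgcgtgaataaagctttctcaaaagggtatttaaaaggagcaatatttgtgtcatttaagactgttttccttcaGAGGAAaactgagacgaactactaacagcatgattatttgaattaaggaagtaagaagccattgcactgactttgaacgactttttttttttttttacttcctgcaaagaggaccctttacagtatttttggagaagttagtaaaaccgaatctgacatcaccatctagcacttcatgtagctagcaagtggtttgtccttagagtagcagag
Tlr4: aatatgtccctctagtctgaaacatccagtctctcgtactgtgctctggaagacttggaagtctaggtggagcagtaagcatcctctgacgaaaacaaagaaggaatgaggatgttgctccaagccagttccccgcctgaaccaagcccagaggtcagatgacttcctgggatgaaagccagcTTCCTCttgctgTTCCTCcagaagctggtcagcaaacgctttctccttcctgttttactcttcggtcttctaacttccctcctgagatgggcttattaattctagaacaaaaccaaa
The words in Itgam began 151 and 39 bases upstream of the start site, and that in Laptm5 63 bases upstream. In the undetected pair they began 163 bases upstream for Ptprc and 67 and 55 bases upstream for Tlr4. The promoter of Cx3cr1 held none of the 3 words in this window.

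In these cultures 12 of the 32 genes with a probe were detected on all 4 arrays, 6 on 1 to 3 arrays and 14 on 0. This is 37.5% detected throughout, beside 66.2% of all 16568 genes, and 43.8% detected nowhere, beside 25.6%. By array, 16 and 13 of the genes were detected in siNEG and 17 and 15 in siGPR17 OPCs, while the share of all genes detected lay between 68.5% and 70.7%. In bulk RNA, fewer cells of a type and less RNA per cell cannot be told apart. Without siNEG replicate 2, 15 of the 32 were detected on every remaining array. With the software's less strict flag, a signal positive and significant over background, 20 of 32 were above it on all 4 arrays.

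Of the 33 genes, 16 that define microglia were used to check the label, so the check was not independent of the list. Cx3cr1, Aif1, Itgam, Cd68, C1qa, C1qb, Tyrobp, Laptm5 and Fcer1g were detected on all 4 arrays, Trem2 on 3 and Spi1 on 1. Csf1r, Ptprc (CD45), Irf8, C1qc and Gpr34 were detected on 0 arrays. The set was only partly detected, and the group is named here after its genes, not as a cell population. The summed signal of the 16 was 3968 and 2688 in siNEG and 2728 and 3192 in siGPR17 OPCs. Without Cx3cr1, the sum over the remaining 15 was 1456 and 1447 in siNEG and 1390 and 1308 in siGPR17 OPCs. Such a sum follows its brightest probes. Cd68 alone gave 549.7 and 795.8 of it in siNEG and 689 and 648.5 in siGPR17 OPCs.

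**Figure D1:**
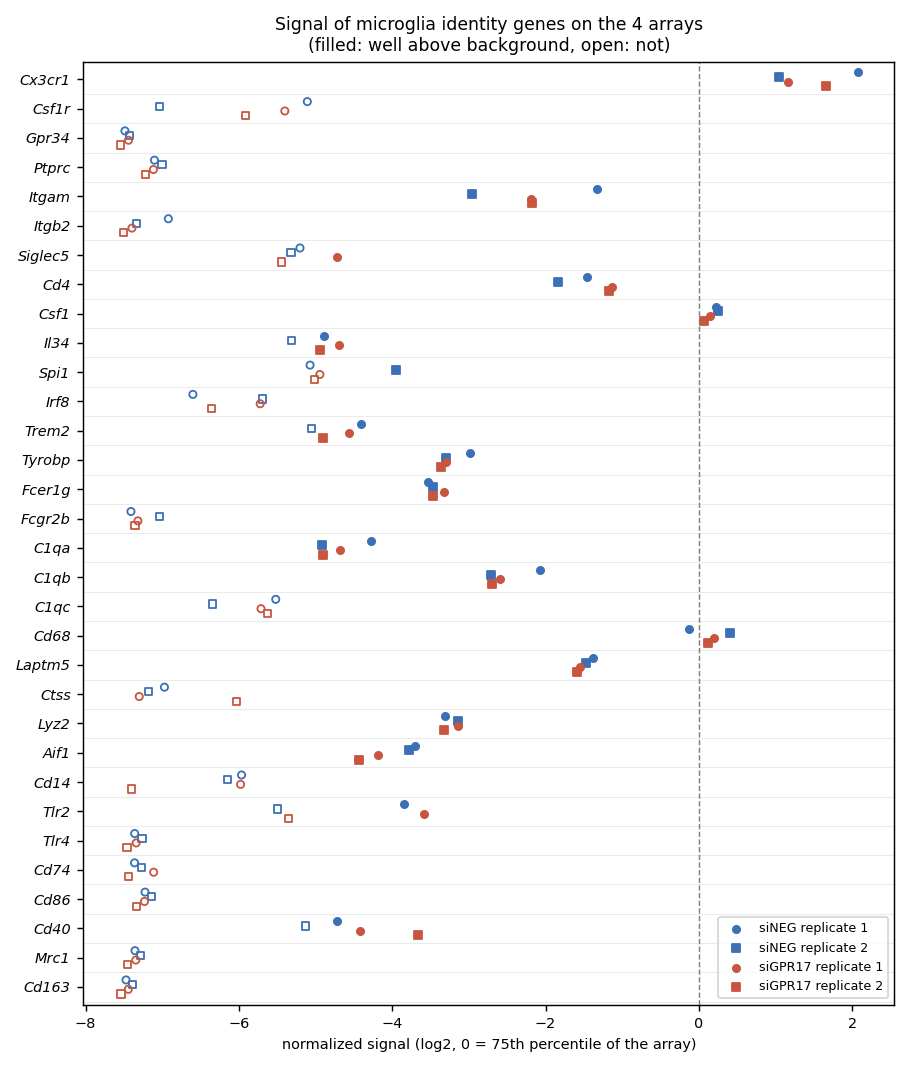
Normalized log2 signal (x axis, 0 is the 75th percentile of the array) of the brightest probe of each of the 32 genes with a probe (y axis), with circles for replicate 1, squares for replicate 2, blue for siNEG and red for siGPR17. Filled symbols are well above background on that array and open ones are not. Csf1r, Ptprc and Gpr34 are open on all 4 arrays, the symbols of at least 1 group lie far apart for Itgam, Cx3cr1 and Tlr2, and positions of different genes are not comparable.

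Markers of other immune cells were counted in the same way. Of the perivascular macrophage markers with a probe 1 of 6 was detected on all 4 arrays, of the lymphocyte markers 2 of 10 and of the neutrophil markers 0 of 8. For perivascular macrophages the summed signals lay between 285.2 and 290.2 in siNEG and between 312.8 and 335.7 in siGPR17 OPCs. Of the 6 genes in that sum 5 were detected on 0 arrays. For lymphocytes the sums lay between 326.5 and 375.5 in siNEG and between 307 and 344.9 in siGPR17 OPCs. For neutrophils they lay between 40.9 and 48.4 on all arrays. Mrc1 and Cd163, the scavenger receptors among the 33 genes that mark perivascular macrophages, were detected on 0 arrays, with signals from 3.22 to 3.86. By contrast 10 of 10 precursor markers, 9 of 11 markers of mature oligodendrocytes, 11 of 12 of astrocytes and 12 of 13 of neurons were detected on all 4 arrays.

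**Figure D2:**
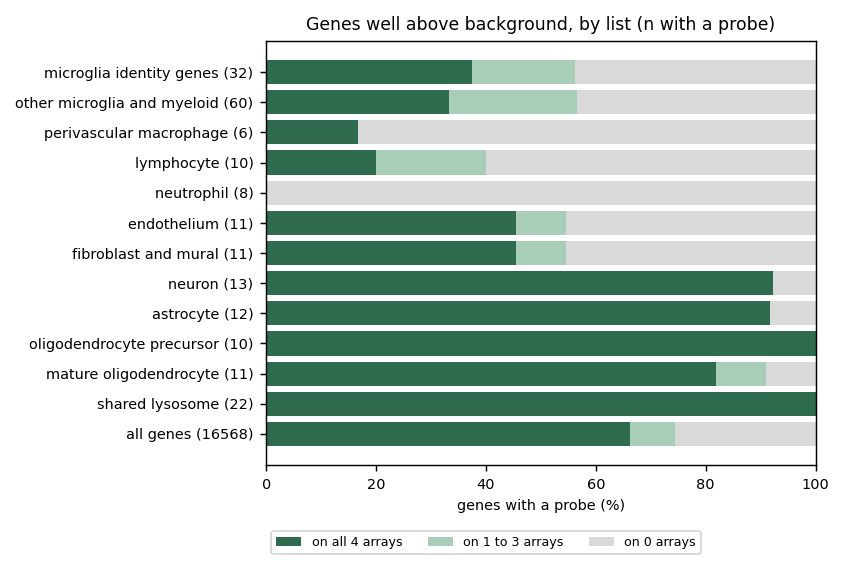
Share of the genes with a probe (x axis, percent) that were well above background on all 4 arrays, on 1 to 3 or on 0, for each list of genes (y axis, number with a probe in brackets). The microglia identity genes stand at 37.5% detected on all 4 arrays, below all genes at 66.2%.

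Of the 16 tested genes 0 passed a fold of 1.5 with an adjusted p under 0.07 in limma, and of all 11656 tested genes 0% did. For the 16 the count was also 0 with limma's trend and robust options, which called 1.58% of all genes, with normexp background correction, which called 0.961%, and with the methods' t-test, which called 0%. At an unadjusted p under 0.05 limma gave 3 of the 16, 2 higher and 1 lower in siGPR17 OPCs, where the background was 16.2% of all tested genes, 7.43% higher and 8.73% lower. A fold of 1.5 was reached by 1 of 16, against 5.08% of all tested genes, and this 1 was higher (2.43% of all were higher and 2.65% lower). For 7 of the 16 every siGPR17 array lay on one side of every siNEG array, 3 higher and 4 lower, against 53.4% of all tested genes, 28.1% higher and 25.3% lower. With 2 arrays a group, the smallest two-sided p of an exact permutation test is 0.333. The median log2 fold change of the 16 was -0.02, and that of all tested genes was 0.0099. When 1 array was left out, the median of the 16 ranged from -0.26 (without siNEG replicate 2) to 0.097 (without siNEG replicate 1).

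**Figure D3:**
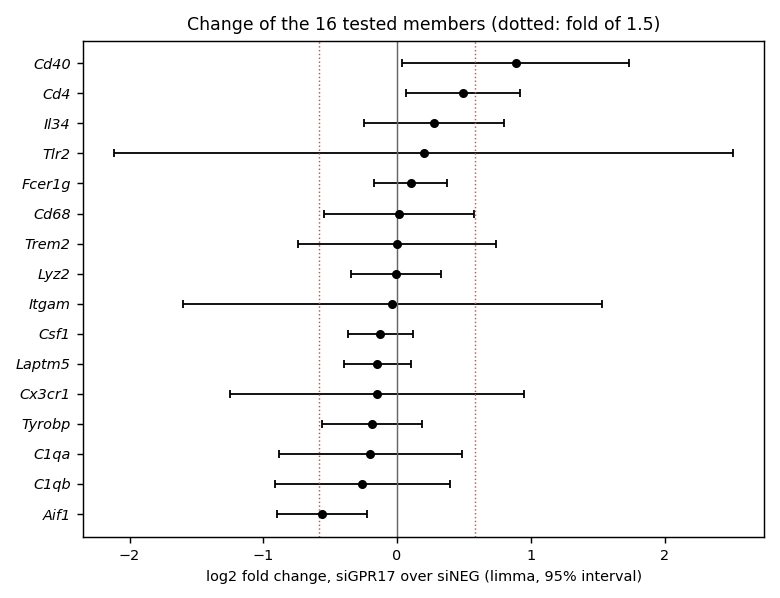
Log2 fold change of siGPR17 over siNEG (x axis) with the 95% interval of limma for the 16 tested genes (y axis), dotted lines at a fold of 1.5 in either direction. The intervals of Cd40, Cd4 and Aif1 leave out 0, that of Aif1 on the lower side, and Tlr2 has the widest, from -2.11 to 2.51.

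Among the receptors, Cx3cr1 binds fractalkine and is used widely to mark microglia. Its probe A_64_P008406 gave signals of 2512 and 1241 in siNEG and of 1338 and 1884 in siGPR17 OPCs. The groups overlapped, since both siGPR17 arrays lay between the siNEG arrays. The log2 fold change was -0.15 with a 95% interval from -1.25 to 0.95 (adjusted p = 0.869, limma). Within slide row 1 the difference was -0.91 and within row 2 it was 0.60.

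Itgam encodes CD11b, a subunit of complement receptor CR3. Its probe A_44_P1161690, which targets a predicted transcript, gave signals of 238.3 and 77.1 in siNEG and of 131.3 and 133.1 in siGPR17 OPCs. Again both siGPR17 arrays fell inside the gap between the siNEG arrays, and the log2 fold change was -0.04 (standard error 0.57). The probe for its curated transcript was detected on 0 arrays. Itgb2, which pairs with Itgam as CD18, was not detected, with signals from 3.29 to 4.95. Itgax (CD11c) had no matched probe.

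Cd4 is carried by rat microglia and macrophages as well as by T helper cells. Its probe A_44_P1105160, which targets a predicted transcript, gave signals of 218.3 and 168 in siNEG and of 273.7 and 265 in siGPR17 OPCs. Both siGPR17 arrays were above both siNEG arrays, with a log2 difference of 0.49 in limma (standard error 0.16, unadjusted p = 0.0331, adjusted p = 0.269), or of 0.30 without siNEG replicate 2. The second Cd4 probe, for the curated transcript, was detected on 0 arrays, with signals of 11.6 and 19.4 in siNEG and of 10 and 10.2 in siGPR17 OPCs. Of the lymphocyte markers 2 were tested, with log2 fold changes of 0.097 for the T-cell gene Cd3d and of -0.087 for the cytotoxic granule gene Nkg7.

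Csf1r, the receptor that microglia need to survive, gave signals of 17.4 and 4.57 in siNEG and of 14.2 and 9.96 in siGPR17 OPCs, none well above background. The lowest signal that carried the flag lay between 7.38 and 13.4 on the different arrays. The 5th percentile of the flagged signals lay between 22.1 and 24.6. Gpr34, a lysophosphatidylserine receptor, stayed between 3.20 and 3.50, and the leukocyte phosphatase Ptprc between 4.02 and 4.67. The sialic acid-binding lectin Siglec5 was detected on siGPR17 replicate 1 alone, with a signal of 22.8 beside 13.7 to 16.3 on the other arrays.

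The ligands of Csf1r are made by neurons and other cells as well as by microglia. Csf1 gave signals of 697.4 and 710.6 in siNEG and of 664.6 and 627.8 in siGPR17 OPCs. Both siGPR17 arrays were below both siNEG arrays by a log2 fold change of -0.12 (95% interval from -0.37 to 0.12), a value that became 0.0043 with spike-in scaling. Il34, the second ligand, gave signals of 20.3 and 15.1 in siNEG and of 23.2 and 19.4 in siGPR17 OPCs. It was detected on 3 arrays, not on siNEG replicate 2, the groups overlapped, and the log2 fold change was 0.28 (95% interval from -0.24 to 0.80).

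Of the transcription factors neither was tested. Spi1 was detected on siNEG replicate 2 alone, with a signal of 38.7 there and of 17.8 on the other siNEG array, and of 19.5 and 18.5 in siGPR17 OPCs. Irf8 was detected on 0 arrays, with signals of 6.18 and 11.6 in siNEG and of 11.4 and 7.33 in siGPR17 OPCs, though positive and significant over background on all 4.

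Trem2 is a lipid-sensing receptor that signals through the adaptor Tyrobp (DAP12). Trem2 signals were 28.4 and 18 in siNEG and 25.4 and 20 in siGPR17 OPCs, with siNEG replicate 2 not well above background, and the log2 fold change was -0.0025 (standard error 0.27). Tyrobp gave 75.6 and 61.1 in siNEG and 61 and 58.5 in siGPR17 OPCs. The Tyrobp groups did not overlap, by a narrow margin between siNEG replicate 2 and siGPR17 replicate 1, and the log2 fold change was -0.19 (95% interval from -0.56 to 0.19). Fcer1g, the common chain of activating Fc receptors, gave 52 and 54 in siNEG and 59.8 and 54 in siGPR17 OPCs, and the log2 fold change was 0.10 (95% interval from -0.17 to 0.38). The inhibitory Fc receptor Fcgr2b was detected on 0 arrays.

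The C1q genes encode the recognition subunits that start the classical complement pathway. C1qa gave signals of 31 and 19.9 in siNEG and of 23.4 and 20.1 in siGPR17 OPCs. C1qb gave 142.9 and 91.9 in siNEG and 99.2 and 92.4 in siGPR17 OPCs. For both, siNEG replicate 1 was high and the other 3 arrays lay close together, so that the groups overlapped. The log2 fold changes were -0.20 (standard error 0.25) for C1qa and -0.26 (standard error 0.24) for C1qb, and without siNEG replicate 1 they were 0.12 and 0.060. C1qc was detected on 0 arrays, with signals from 7.37 to 13.1, but was positive and significant over background on all 4.

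Among lysosomal and cytoskeletal genes, Cd68 encodes the scavenger glycoprotein macrosialin. Its signals were 549.7 and 795.8 in siNEG and 689 and 648.5 in siGPR17 OPCs. Both siGPR17 arrays lay inside the siNEG range, and the log2 fold change was 0.015 (95% interval from -0.55 to 0.58). Laptm5, a lysosomal membrane protein of leukocytes, gave 230.1 and 215.5 in siNEG and 203.7 and 198.3 in siGPR17 OPCs, without overlap, at a log2 fold change of -0.15 (95% interval from -0.40 to 0.10). Lysozyme (Lyz2) gave 60.2 and 67.9 in siNEG and 68 and 59.6 in siGPR17 OPCs, and all 3 of its probes had log2 fold changes between -0.01 and 0.014. Cathepsin S (Ctss) was detected on 0 arrays.

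Aif1 encodes Iba1, the actin-bundling protein stained most often to show microglia. Its probe A_44_P1087313 gave signals of 46.1 and 43.5 in siNEG and of 33 and 27.8 in siGPR17 OPCs. Both siGPR17 arrays were below both siNEG arrays, and the replicates differed less than the groups. The log2 difference was -0.56 (95% interval from -0.90 to -0.23, unadjusted p = 0.00925 and adjusted p = 0.216 from limma), with -0.48 in slide row 1 and -0.64 in row 2. With normexp background correction it was -0.11. A second Aif1 probe was well above background only on the replicate 1 arrays, with a fitted log2 difference of -0.35 (standard error 0.25).

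Of the 3 innate sensors 2 were detected on 0 arrays. Tlr2, the other one, a receptor for bacterial lipoproteins, gave 41.8 and 13.2 in siNEG and 49.9 and 14.7 in siGPR17 OPCs. It was detected on the replicate 1 array of each group and on neither replicate 2 array. It thus separated the replicate numbers, which match the rows of the slide, and not the treatments. The log2 fold change was 0.20 (standard error 0.85), and the difference within rows was 0.25 and 0.15. The undetected pair were the endotoxin receptor Tlr4 and its co-receptor Cd14.

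Of the antigen presentation genes, Cd40 encodes the receptor for CD40 ligand of T cells. Its probe A_44_P442823 gave 22.7 and 17.2 in siNEG and 28.1 and 47.5 in siGPR17 OPCs, with siNEG replicate 2 not well above background. Both siGPR17 arrays were above both siNEG arrays, and the distance between the siGPR17 arrays was large. The log2 difference was 0.89 (standard error 0.31, unadjusted p = 0.0437 and adjusted p = 0.288 from limma), with 0.31 in row 1 and 1.47 in row 2. Without siGPR17 replicate 2 it was 0.51, and with normexp 0.28. The study picked Cd40 from these same arrays, so its change here is not independent evidence. A second Cd40 probe was detected on siNEG replicate 1 alone, with signals of 21.6 and 7.81 in siNEG and of 9.64 and 7.80 in siGPR17 OPCs. Cd74, the invariant chain of MHC class II, and the costimulatory ligand Cd86 were detected on 0 arrays, with signals from 3.46 to 4.34 and from 3.71 to 4.26.

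Differences between replicates are given here as a description, beside those of all tested genes. The median absolute log2 difference between the siNEG arrays was 0.42 over the 16 tested genes and 0.15 over all tested genes. Between the siGPR17 arrays it was 0.17 and 0.076. The probes are not equally bright, so the values were also split by level. Above a mean normalized log2 signal of -3 the siNEG difference was 0.53 for 7 of these genes and 0.13 for 9266 genes, and below it 0.41 for 9 and 0.31 for 2390. The siNEG replicate 1 array was above replicate 2 for 12 of the 16, with a median difference of 0.39, while over all tested genes the median difference was -0.06. In siGPR17 OPCs replicate 1 was above replicate 2 for 13 of the 16. Over all 11656 tested genes replicate 1 was above for 4414 in siNEG and for 6146 in siGPR17 OPCs. The change between groups was smaller than the larger of the replicate differences for 11 of the 16 (68.8%), beside 59.9% of all tested genes. Within slide rows, 5 of the 16 were higher in siGPR17 OPCs in both rows, 4 were lower in both and 7 went opposite ways (43.8%, beside 36.7% of all tested genes).

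**Figure D4:**
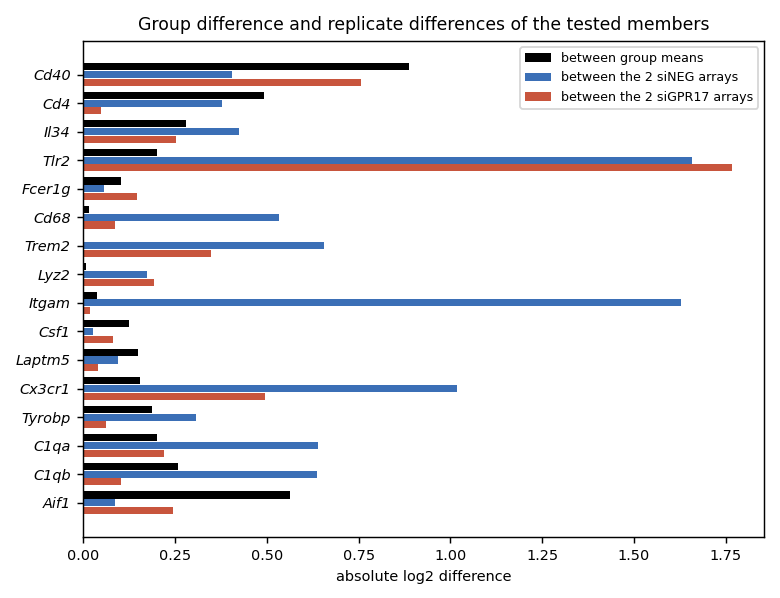
Absolute log2 difference (x axis) for each of the 16 tested genes (y axis): black bars between group means, blue bars between the siNEG arrays, red bars between the siGPR17 arrays. For Itgam, Cx3cr1, Cd68, C1qa and C1qb, among others, the blue bar is longer than the black one. The black bar is the longest of its gene for Aif1, Cd4, Cd40, Csf1 and Laptm5.

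Of 65 further microglia and myeloid genes 60 had a probe, 20 of them (33.3%) were detected on all 4 arrays and 26 on 0. Of the 26 tested 0 were called in limma. At an unadjusted p under 0.05, 3 were higher and 10 lower in siGPR17 OPCs, beside the 7.43% and 8.73% of all genes, and the median log2 fold change was -0.18. The largest rise in the list was that of C3ar1, the receptor for the complement fragment C3a, at 1.29 (standard error 0.43), with siNEG replicate 2 not well above background. It was 0.69 without that array and 0.38 with normexp. The largest fall was that of Slc2a5, a fructose transporter of microglia, with signals of 177.2 and 265.1 in siNEG and of 113 and 83.5 in siGPR17 OPCs. Its log2 difference was -1.16 in limma (standard error 0.27), with an adjusted p of 0.218, or of 0.0567 with trend and robust options. With normexp the difference was -0.65. Lgals3, singled out after its values were seen, gave signals of 202.6 and 224.3 in siNEG and of 334 and 346.3 in siGPR17 OPCs. Its log2 difference was 0.67 in limma (standard error 0.10), with an adjusted p of 0.209, or of 0.0329 with trend and robust options. P2ry12, the homeostatic purinergic receptor of microglia, and Tmem119, both singled out after their values were seen, were tested as well, with log2 fold changes of -0.32 (standard error 0.10) and -0.03 (standard error 0.28).

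**Figure D5:**
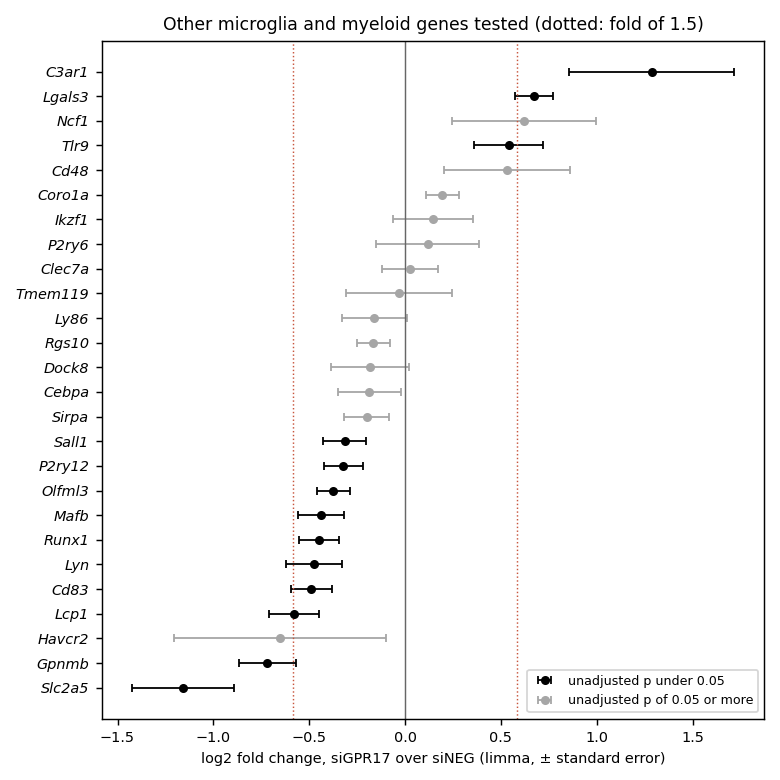
Log2 fold change of siGPR17 over siNEG (x axis) with the standard error of limma for the 26 tested genes among the 65 further microglia and myeloid genes (y axis), black where the unadjusted p is under 0.05, dotted lines at a fold of 1.5. There are 3 black points on the right and 10 on the left, with C3ar1 and Slc2a5 at the ends.

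The other lists around these genes were tested in the same fit, with 0 called in each. Ligands of microglial receptors were detected on all 4 arrays for 6 of 9. Of the 6 tested, 3 had an unadjusted p under 0.05 in limma, all lower, beside 8.73% of all tested genes. Their largest fall was that of the adhesion ligand Icam1, at -0.77 (standard error 0.19, -0.30 with normexp), and their largest rise that of the growth factor Tgfb2, at 0.047. Cx3cl1, the ligand of Cx3cr1, was singled out after its values were seen, with 1364 and 1397 in siNEG and 944.6 and 969 in siGPR17 OPCs, or -0.53 on the log2 scale by limma (standard error 0.086), with an adjusted p of 0.209. Of the TGF-beta and TAM receptors 3 of 5 were tested, with the receptor kinase Tyro3 at 0.68 in limma (standard error 0.12, adjusted p = 0.209, or 0.0287 with trend and robust options) and Tgfbr2 at -0.29.

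Of the other complement genes 10 of 18 were tested. At an unadjusted p under 0.05 in limma 2 were higher and 1 lower, beside 7.43% and 8.73% of all tested genes. The 1 lower gene was not C1s. The protease Cfi, which inactivates C3b, had a log2 difference of 0.91 (standard error 0.22), or of 0.35 with normexp. C1s, a protease of the C1 complex, gave signals of 14.1 and 8.77 in siNEG and of 8.05 and 6.59 in siGPR17 OPCs. It was well above background on the siNEG arrays alone and entered the test only through them. Its fitted fold is therefore not read as a change between the groups. Genes of the lysosome that all cells use were detected on all 4 arrays for 22 of 22, with a median log2 fold change of 0.084, the sterol-binding protein Npc2 at 0.47 and the proton pump subunit Atp6v1a at -0.27. For MHC class II, 5 of 7 genes were tested and their extremes were the chaperone subunits RT1-DMb at 0.32 and RT1-DMa at -0.38.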

How the data were processed

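Labelled RNA of 4 OPC cultures was hybridized to one-color Agilent rat arrays. The authors deposited the spot intensities of each array in a file of its own, made by Agilent Feature Extraction 10.7.3.1 per the submitters' processing notes: background-corrected and detrended, not normalized between arrays. Here the deposited intensities were put on a log2 scale and centred on the 75th percentile of the non-control probes of each array. Controls and outlier-flagged spots were dropped, and spots of a probe were averaged. The 28016 probes well above background on at least 2 arrays were fitted in R 4.3.3 with limma 3.58.1, using lmFit and eBayes (two-sided, no block), with Benjamini-Hochberg adjustment over all of them. A gene was called at a fold of 1.5 and an adjusted p under 0.07, the thresholds of the methods. Each gene was represented by its brightest tested probe, or its brightest probe where none was tested.

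Probes were named by accession through a RefSeq gene table of GRCr8, which gave 21093 probes a symbol. The text names all 33 genes, the largest rise and fall of the 6 lists around them (other microglia and myeloid, ligands of microglial receptors, TGF-beta and TAM receptors, other complement, shared lysosome, MHC class II) and of the lymphocyte list, Gpr17, and a few genes said to be singled out. Marker lists of perivascular macrophages, lymphocytes, neutrophils, oligodendrocyte precursors, mature oligodendrocytes, astrocytes, neurons, endothelium, and fibroblasts and mural cells were counted for detection. On all 4 arrays, 5 of 11 endothelial and 5 of 11 fibroblast and mural genes were detected. The genes and lists were chosen with earlier results of these data known. The result of 1 further myeloid gene is not reported here, and it was left out of the counts of its list. The code was tested on simulated data.

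Alternatives were normexp with an offset of 50 on the spot median (the spot mean was not used here), quantile normalization, scaling on the median or on 8 spike-in probes, a filter for dim probes that was absent or required all 4 arrays, raising dim signals to a floor, the trend and robust options of eBayes, the unpaired t-test that the methods name for 2 groups (the methods' t-test), the replicate number as a block, the mean of all tested probes, and leaving out each array. The number of arrays limits the precision.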

Additional observations from a re-analysis of the deposited data

How the results depend on the processing

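The count of called genes among the 33 was 0 under every alternative to the fit that kept all 4 arrays. Without a filter every gene with a probe could be called, and otherwise at most the 16 tested genes. These alternatives called little: Gpr17 itself was called only with trend and robust options and with normexp. Of all tested genes, 0% were called in the main fit and with the methods' t-test. In the lists around them, with 72 genes tested, 0 were called in the main fit. With trend and robust options 3 were called, beside 1.58% of all tested genes, and with normexp 2, beside 0.961%. The number detected on all arrays was 12, it was 20 by the less strict flag, and it ranged from 12 to 15 when 1 array was left out, a setting added after seeing the data. The number with an unadjusted p under 0.05, whose alternatives were also added then, was 3. It became 1 with the methods' t-test and 1 without a filter, and ranged from 0 (without siGPR17 replicate 2) to 6 (without siNEG replicate 2). The share of all tested genes, 16.2%, is given for the main fit alone. Whether the counts under the altered settings depart from such a background was therefore not tested. Leaving out 1 array also leaves 1 array in that group. The median log2 change of the tested genes ranged from -0.26 (without siNEG replicate 2) to 0.097 (without siNEG replicate 1) when 1 array was left out.

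Of the 16 tested genes 7 kept their direction under all alternatives run and 9 did not. Spike-in scaling moved the median of all tested genes to 0.14, and under it Itgam stood at 0.092, Csf1 at 0.0043, Trem2 at 0.13 and Lyz2 at 0.12, each at or below that shift. Trem2 turned to 0.000092 with median scaling, 0.075 with normexp and 0.020 with quantile normalization. Lyz2 turned to 0.032 with normexp, 0.015 with quantile normalization and 0.0031 with the mean of its probes. With normexp C1qa turned to 0.0022. The fitted value of C1s, in the complement list, turned to 0.028 with normexp. Since C1s was tested only through the siNEG arrays, neither its sign nor its turn is read as a change. Leaving out 1 array gave Cx3cr1 values from -0.66 to 0.36, Itgam from -0.85 to 0.78, Trem2 from -0.33 to 0.33, C1qa from -0.52 to 0.12, C1qb from -0.58 to 0.060, Cd68 from -0.25 to 0.28, Lyz2 from -0.10 to 0.089 and Tlr2 from -0.68 to 1.08. The cause was not tested beyond the arrays and scalings named.

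The replicate numbers match the rows of the slide, but no source ties the cultures by number, and the deviations of same-numbered arrays correlated with r = -0.065 across tested probes, which are not independent. With the replicate number as a block, 0 of the 16 tested genes and 0 in the lists around them were called, and Gpr17 was not called. Of the 16, 2 had an unadjusted p under 0.05 in limma, and the median log2 change of the 16 was -0.02. The share of all tested genes under that p is not given for this fit. Low signal over background limits what can be said of the 14 undetected genes.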
